A study of Mus musculus with 9 samples.

Results

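Nucleolar ribosome biogenesis factors were followed as 42 genes, of 40879 gene symbols counted in each library, in engineered mouse muscle after X-ray irradiation or coculture. The members are the rows with 42 listed symbols, and the list was selected on these data: its members were chosen after Rrp1b and Mak16 were seen to be low in irradiated constructs. All 42 symbols matched a row, and all 42 were among the 11980 genes that passed the filter on low counts. The 3 groups of 3 libraries each were wild type (WT) C2C12, an immortalised mouse myoblast line, embedded in matrix derived from muscle tissue. To induce senescence, irradiated constructs (SnC) were given 20 Gy of X-rays once. Cocultured constructs were kept in 1 dish with an irradiated construct, without being irradiated themselves, to model signals secreted by senescent cells. Normal constructs were neither irradiated nor cocultured. Every construct spent 2 days in growth medium and 10 days in differentiation medium with 10% equine serum. Per the series design 2 constructs of a condition shared a dish, and the labels do not say which, so p-values measure the spread between these libraries, which may include dish partners. The design text counts 2 irradiated and 2 normal constructs where the labels give 3 biological replicates of each. The model is 1 cell line in culture, without the vessels, nerve or immune cells of a muscle.

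Ribosomes are built in the nucleolus. RNA polymerase I transcribes the ribosomal DNA, small nucleolar ribonucleoproteins (snoRNPs) direct methylation and pseudouridylation of the precursor RNA, and large sets of assembly factors fold, cut and export the pieces that become the small and the large ribosomal subunit. Demand for these factors is known to track cell growth, the transcription factor MYC is known to bind many of their promoters at the E-box, and disturbed ribosome assembly is known to stabilise p53.

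Libraries held 4840993 to 8290468 counts, and 8306 to 14159 symbols had a count. Replicates of a group differed widely (Spearman correlations across genes of 0.489 to 0.809 and a square root of the common dispersion of 1.32). Irradiated 2 and irradiated 3 stood apart: 34.7% and 32.0% of the 11980 tested genes had no count there, against 17.1% in irradiated 1, 10.3 to 22.4% in cocultured libraries and 5.13 to 16.2% in normal libraries. Mitochondrial transcripts took 21.6, 10.9 and 13.4% of counts in irradiated, 10.8 to 12.5% in cocultured and 5.76, 6.99 and 29.7% in normal libraries. The predicted gene Gm26917 took 12.01, 4.76 and 5.28% in irradiated, 3.38 to 3.91% in cocultured and 23.9, 27.4 and 9.47% in normal libraries, so composition differed within and between groups. All 10 markers of the skeletal muscle lineage had counts, among them Myog, the myogenic regulator, which had 525, 129 and 295 normalised CPM (CPM scaled for library size and composition) in irradiated, 370.2, 287 and 167 in cocultured and 190.0, 378 and 199 in normal libraries. Irradiated 1 and normal 3 stood apart in the mature muscle markers: Acta1, skeletal actin, had 18614 and 33319 normalised CPM there, against 1361 to 3117 in the other libraries. Myf5, an early myogenic regulator, was at 0 in the 3 irradiated libraries and had 2.89 to 32.0 normalised CPM in cocultured and 1.92 to 20.0 in normal libraries. Mymk, of the same list, lay the other way, with 191, 355 and 199 in irradiated and 161, 138 and 68.4 normalised CPM in normal libraries. Of the 10 muscle markers 5 had a fitted log2 difference above 0 between irradiated and normal constructs. The part of these differences in the members' values was not tested. Summed markers of endothelium, leukocytes, adipocytes, Schwann cells and red blood cells stayed between 0 and 112 normalised CPM per list and library. In the endothelial, adipocyte and red blood cell lists 1 gene each, Emcn, Plin1 and Alas2, was at 0 in all 9 libraries, and in the leukocyte and Schwann cell lists none was. Other markers stood out in single libraries, such as Hba-a1, a globin gene, with 56.6 normalised CPM in irradiated 1, and Fabp4, of adipocytes, and Csf1r, of macrophages, with 85.6 and 37.2 in normal 3.

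The promoters of the paralogs Rrp1b and Rrp1 are shown because Rrp1b was at 0 in the 3 irradiated libraries, while Rrp1 had counts in all of them. The first of 2 Rrp1b windows in the table lies at chr17:32035912-32036191, plus strand, and the Rrp1 window at chr10:78413014-78413293, minus strand, in RefSeq sequence of GRCm38.p6. Each line runs 5′ to 3′ over 250 bases upstream of the annotated start, and the 30 transcribed bases that follow are in capitals.
Rrp1b: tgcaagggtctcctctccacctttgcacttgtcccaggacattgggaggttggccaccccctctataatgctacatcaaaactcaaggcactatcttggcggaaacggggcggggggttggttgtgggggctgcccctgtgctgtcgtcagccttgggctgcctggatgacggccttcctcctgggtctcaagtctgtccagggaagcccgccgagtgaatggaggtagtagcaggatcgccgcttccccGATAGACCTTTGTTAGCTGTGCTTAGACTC
Rrp1: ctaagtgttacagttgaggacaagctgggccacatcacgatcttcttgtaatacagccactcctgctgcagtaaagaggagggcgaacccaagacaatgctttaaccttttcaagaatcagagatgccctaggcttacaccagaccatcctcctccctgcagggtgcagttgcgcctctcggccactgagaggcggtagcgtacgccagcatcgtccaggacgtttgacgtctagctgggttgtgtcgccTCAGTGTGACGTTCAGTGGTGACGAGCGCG
The Rrp1b window was 58.6% G and C with 10 CG pairs, and the Rrp1 window 55% with 15 CG pairs.

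The E-box, CACGTG, reads the same on both strands, and no other motif was searched. Of the 42 members 35 had a RefSeq promoter window, 250 bases before to 50 after a start, and 5 of these (14.3%) held an E-box, against 2187 of 27025 genes with a window (8.09%). Without a window were Mak16, Fbl, Rrs1, Bop1, Npm1, Rrp12 and Tcof1. The matches are shown with the E-box in capitals for Utp20 (chr10:88826765-88826794, minus strand), Wdr43 (chr17:71616220-71616249, plus strand), Pno1 (chr11:17211540-17211569, minus strand), Nop2 (chr6:125131811-125131840, plus strand) and Pes1 (chr11:3963965-3963994, plus strand).
Utp20: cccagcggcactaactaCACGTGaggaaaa
Wdr43: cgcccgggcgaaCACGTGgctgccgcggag
Pno1: tgcgctgtacaaccacgCACGTGttcctct
Nop2: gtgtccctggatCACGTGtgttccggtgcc
Pes1: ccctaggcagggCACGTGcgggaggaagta
In Nop2 the match began 60 bases before the start, while in Pes1, Wdr43, Pno1 and Utp20 it began 2, 17, 37 and 37 bases past it. The 5 genes did not share a pattern of levels: the fitted log2 difference between irradiated and normal constructs was -1.04 for Utp20, 0.55 for Wdr43, 1.48 for Pno1, 0.04 for Nop2 and 0.64 for Pes1. A match is a description of the letters and not evidence of binding.

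Across the whole list the levels in irradiated constructs lay around those in normal constructs. The 42 members summed to 2770, 2166 and 2992 normalised CPM in irradiated libraries, 2923, 3269.9 and 2738 in cocultured libraries and 2579.6, 3389 and 2614 in normal libraries. These sums averaged 2643 ± 428, 2977 ± 269.9 and 2861 ± 458 in irradiated, cocultured and normal constructs (SD, n = 3 each), so the groups overlapped. The nucleolar proteins Ncl and Npm1 made up 29.5 to 45.1% of the sum in each library. Because each read marks the 3′ end of a transcript, levels are set side by side between genes without scaling to length. In these bulk libraries fewer cells with a transcript and less of it per cell cannot be told apart.

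**Figure D1:**
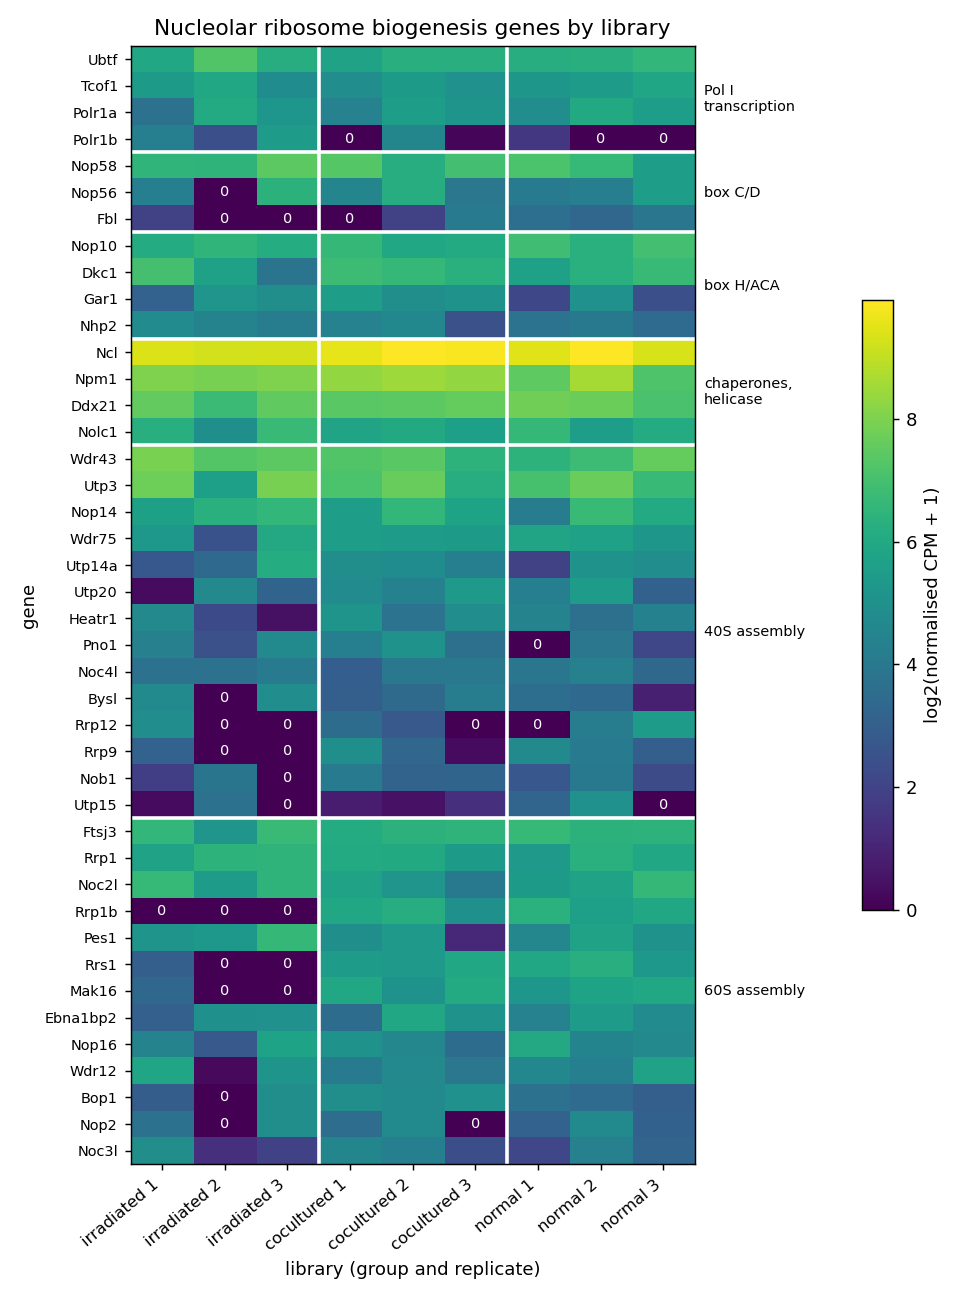
Normalised CPM of the 42 members, as log2 with a pseudocount of 1, in each of the 9 libraries, with genes grouped by role and irradiated, cocultured and normal libraries running from left to right. Rrp1b is at 0 in the 3 irradiated libraries, and Mak16 and Rrs1 are at 0 in irradiated 2 and irradiated 3.

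The median log2 difference between irradiated and normal constructs was -0.07 over the 42 members and -0.21 over all tested genes, and 19 members were above 0. For 31 members the difference lay between -1 and 1 on the log2 scale. It was over 1 for 3 members, between -2 and -1 for 3 and under -2 for 5. By the threshold of an adjusted p under 0.05 in edgeR, 1 of the 42 was past it between irradiated and normal constructs, Rrp1b, where 0.0584% of all genes were. Because that contrast was used to choose the members, these values are a description and carry no test. The irradiated libraries lay above all normal libraries for 2 members, Polr1b and Nhp2, where 3.94% of all genes did so. They lay below all normal libraries for 4 members, Fbl, Rrp1b, Mak16 and Rrs1, where 11.8% of all genes did so.

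Polymerase I and its cofactors transcribe the ribosomal DNA. Ubtf, the factor that keeps ribosomal DNA open and recruits the polymerase, had 61.3, 152 and 71.0 normalised CPM in irradiated, 52.1, 75.9 and 76.6 in cocultured and 72.5, 75.4 and 94.4 in normal libraries. Irradiated 2 was the highest of the 9 for Ubtf, and the groups overlapped. Polr1a, the largest subunit of the polymerase, had 12.1, 66.1 and 36.3 in irradiated, 20.4, 44.8 and 34.2 in cocultured and 27.9, 63.9 and 46.2 normalised CPM in normal libraries. Tcof1 encodes treacle, a nucleolar scaffold for ribosomal DNA transcription mutated in Treacher Collins syndrome in humans. Its levels were 41.3, 61.1 and 27.2 normalised CPM in irradiated, 27.9, 41.3 and 31.5 in cocultured and 37.2, 43.9 and 56.9 in normal libraries. For Polr1a and Tcof1 the range of the irradiated libraries held all the other values. The fitted log2 differences between irradiated and normal constructs were 0.23, -0.27 and -0.09 for Ubtf, Polr1a and Tcof1.

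Polr1b, the second-largest subunit of polymerase I, went against this pattern and is named after its values were seen. It had 18.7, 4.42 and 42.8 normalised CPM in irradiated, 0, 22.5 and 0.113 in cocultured and 2.05, 0 and 0 in normal libraries. Normal constructs were thus near 0 for a subunit that the enzyme needs, while irradiated libraries lay above them without overlap. Runs of 75 bases near its annotated 3′ end are shared with Plekha5 on the same strand and with Hibch on the opposite strand, so its counts are uncertain.

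Box C/D snoRNPs place methyl groups on the ribose of ribosomal RNA. Nop58, a core protein of the particle, had 88.4, 87.6 and 174 normalised CPM in irradiated, 157, 71.9 and 123 in cocultured and 137, 98.6 and 47.1 in normal libraries, with full overlap. Nop56, its partner in the core, had 18.7, 0 and 82.0 in irradiated, 21.9, 72.6 and 14.5 in cocultured and 16.0, 18.2 and 47.1 normalised CPM in normal libraries. The irradiated group thus held both the lowest and the highest Nop56 value. Fbl, fibrillarin, is the methyltransferase of the particle. Its levels were low in all groups, 2.77, 0 and 0 normalised CPM in irradiated, 0, 2.79 and 15.6 in cocultured and 11.5, 8.64 and 14.0 in normal libraries. The irradiated libraries lay below the normal ones for Fbl, and the cocultured libraries spanned both. Fbl shares 75-base runs at its 3′ end with the predicted genes Gm5812 and Gm6211 and on the opposite strand with Tulp4, and Nop56 shares such runs with 5 predicted genes, so both are uncertain.

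Box H/ACA snoRNPs convert uridine to pseudouridine, and their proteins also stabilise telomerase RNA. Dkc1, dyskerin, the pseudouridine synthase, had 127, 49.8 and 13.3 normalised CPM in irradiated, 112, 95.9 and 77.1 in cocultured and 50.7, 77.7 and 103 in normal libraries. The irradiated libraries spread over the widest range and overlapped both other groups. Nop10, a small core subunit, had 68.1, 89.9 and 70.0 in irradiated, 97.5, 59.98 and 66.3 in cocultured and 117, 78.6 and 123 normalised CPM in normal libraries. Gar1, which helps release the modified RNA, had 7.67, 35.3 and 29.2 in irradiated, 47.0, 28.7 and 32.2 in cocultured and 3.49, 31.1 and 4.38 normalised CPM in normal libraries. Groups overlapped for both genes, with normal 2 the only normal library at a Gar1 level like that of most others. Nhp2, the fourth core protein, averaged 21.5 ± 4.92 in irradiated, 16.4 ± 10.4 in cocultured and 12.7 ± 2.55 normalised CPM in normal constructs (SD, n = 3 each), and its irradiated libraries lay above the normal ones.

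The abundant nucleolar proteins were among the most tightly measured. Ncl, nucleolin, a histone chaperone and RNA-binding protein of the nucleolus, had 683, 616 and 626 normalised CPM in irradiated, 762, 955 and 917 in cocultured and 702, 977 and 635 in normal libraries. Every irradiated library was below every cocultured one for Ncl, while irradiated and normal libraries overlapped. Npm1, nucleophosmin, a chaperone of the granular part of the nucleolus, had 256, 239 and 255 in irradiated, 315, 352 and 317 in cocultured and 174, 390.4 and 147 normalised CPM in normal libraries. For Npm1 the irradiated libraries lay below the cocultured ones and inside the range of the normal ones, where normal 2 was highest. Irradiated libraries lay below all cocultured ones for 5 of the 42 members, where 1268 of the 11980 tested genes did so. Ddx21, an RNA helicase that joins polymerase I transcription to processing, had 188, 109 and 181 in irradiated, 166, 171 and 191 in cocultured and 218, 209 and 136 normalised CPM in normal libraries, again with overlap. Irradiated over normal, the fitted log2 differences were -0.26 for Ncl, 0.08 for Npm1 and -0.24 for Ddx21. Npm1 shares 75-base runs near its 3′ end with 5 predicted genes. The only one of these with a symbol in the count tables, Gm14681, held 9 counts over the 9 libraries.

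The small subunit processome is the large particle that folds and cuts the precursor of 18S ribosomal RNA. Wdr43, a subunit that binds the nascent precursor, had 241, 156 and 172 normalised CPM in irradiated, 152, 166 and 84.9 in cocultured and 84.6, 112 and 193 in normal libraries. Utp3, a processome factor, had 210.4, 47.3 and 236 in irradiated, 139.8, 194 and 71.9 in cocultured and 129.8, 204 and 104 normalised CPM in normal libraries. For both genes the groups overlapped, and irradiated 2 was the lowest of the 9 libraries for Utp3. Nop14, which is needed for 18S maturation in yeast, had 49.0, 77.2 and 95.7 in irradiated, 45.4, 94.1 and 53.8 in cocultured and 17.3, 102 and 65.9 normalised CPM in normal libraries. The other 11 members of this class were below these 3 on average, and none lay apart between irradiated and normal libraries. The median log2 difference of the 14 small subunit members was -0.25 between irradiated and normal constructs.

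Irradiated libraries lay below all normal ones for 4 of the 42 members (9.52%), where 11.8% of all tested genes did so. Of these 4, Rrp1b, Mak16 and Rrs1 are large subunit factors. Rrp1b and Mak16 are the genes on whose low irradiated values the list was chosen, so this grouping carries no test. Rrp1b was at 0 in the 3 irradiated libraries, against 61.7, 71.6 and 30.4 normalised CPM in cocultured and 79.9, 47.3 and 59.1 in normal libraries. The protein is a nucleolar factor of large subunit assembly that is also known as a transcriptional coactivator and as a modifier of metastasis in mouse crosses. In raw counts this was 0 over the irradiated group, 1537 over the cocultured group and 813 over the normal group. Against a floor of 3 counts over the irradiated group, Rrp1b was at least 494-fold lower in irradiated than in normal constructs and at least 434-fold lower than in cocultured ones. Both values cover counting error only, and they are the values on which the list was chosen. Of 3195 genes with 30 to 100 normalised CPM on average in cocultured and normal libraries, 7 (0.219%) were at 0 in all irradiated libraries, and among the 17 members at that level Rrp1b was the only one.

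Rrp1, the paralog, is likewise a homologue of yeast Rrp1, a factor of large subunit assembly. It had 52.4, 83.7 and 86.0 normalised CPM in irradiated, 66.9, 64.6 and 41.4 in cocultured and 39.8, 77.7 and 61.0 in normal libraries. The irradiated libraries overlapped both other groups, and the fitted log2 difference between irradiated and normal constructs was 0.32 ± 0.51 (SE). No 75-base run is shared between the 3′ ends of the annotated Rrp1 and Rrp1b transcripts, so a read of that length from there could be assigned to only 1 of them.

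Mak16, an early large subunit assembly factor known from yeast, had 9.37, 0 and 0 normalised CPM in irradiated, 60.5, 33.0 and 65.6 in cocultured and 36.1, 53.9 and 60.5 in normal libraries. All 44 irradiated counts lay in irradiated 1, and without that library the group was at 0. Rrs1, which in yeast brings the 5S particle into the large subunit, was singled out after its values were seen. It had 7.03, 0 and 0 in irradiated, 43.8, 40.7 and 61.8 in cocultured and 59.4, 75.9 and 38.0 normalised CPM in normal libraries. Its 33 irradiated counts, too, all came from irradiated 1. For Mak16 and Rrs1 the irradiated libraries lay below all 6 others, with fitted log2 differences from normal constructs of -4.03 ± 1.66 and -4.66 ± 1.65 (SE). Irradiated 2 and irradiated 3, the libraries where these genes had no count, were those with the most tested genes at 0, and the part of that in the low values was not tested. Mak16 shares 75-base runs with Tti2 on the opposite strand, and the strand setting of the counting is not given in the sources used here.

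The most abundant large subunit factors did not follow. Ftsj3, a methyltransferase of the ribosomal RNA precursor, had 94.3, 35.5 and 101 normalised CPM in irradiated, 68.9, 82.3 and 87.6 in cocultured and 99.4, 82.3 and 83.7 in normal libraries. Noc2l, which in yeast takes large subunit precursors out of the nucleolus and in mammals also inhibits histone acetyltransferases, had 99.4, 43.8 and 86.7 in irradiated, 51.9, 35.5 and 15.3 in cocultured and 41.7, 51.6 and 96.0 normalised CPM in normal libraries. Both genes overlapped between all groups. Noc2l shares 75-base runs with Samd11 on the opposite strand, a gene with 11 counts over the 9 libraries. Over the 13 large subunit members the median log2 difference between irradiated and normal constructs was -0.06, and 6 were above 0.

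**Figure D2:**
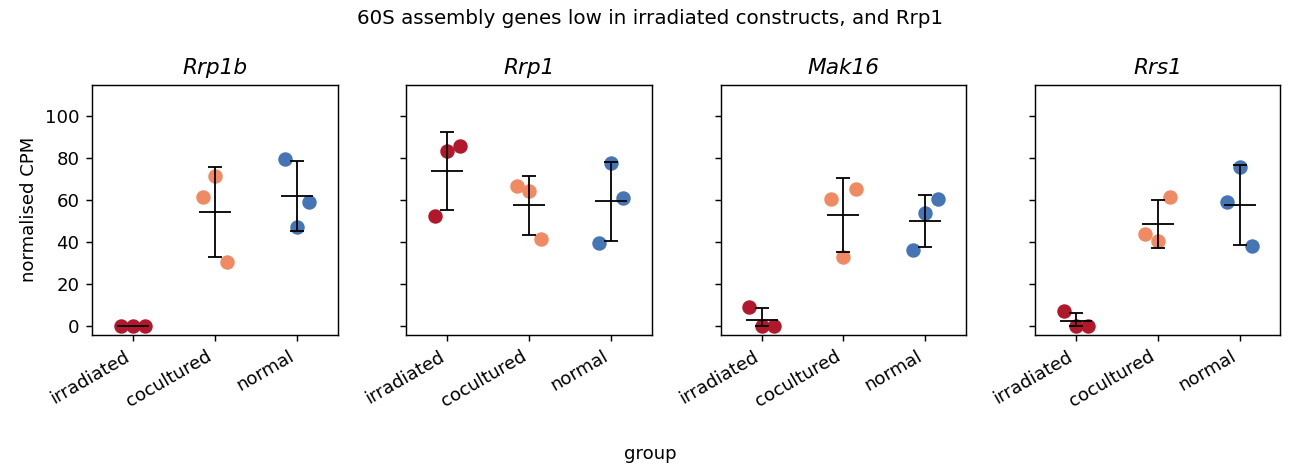
Normalised CPM of large subunit assembly factors in each library (points), with the group mean and SD (bars, lower arm ended at 0), for irradiated, cocultured and normal constructs from left to right. Rrp1b is at 0 in all irradiated libraries and Mak16 and Rrs1 in irradiated 2 and irradiated 3, while the paralog Rrp1 overlaps between groups.

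Loss of detection was not limited to these genes. Of the 42 members, 1 had no count in irradiated 1, 10 had none in irradiated 2 and 8 had none in irradiated 3, against 2, 0 and 2 in cocultured and 2, 1 and 2 in normal libraries. As shares of the members this was 2.38, 23.8 and 19.0% in irradiated libraries, where it was 17.1, 34.7 and 32.0% of all tested genes, a set that includes many of lower level. Among 2980 genes averaging 20 to 50 CPM in cocultured and normal libraries it was 5.503, 20.8 and 17.3%. The difference from either set was not tested. In all, 28 members had a count in every library, 12 lacked one in at least 1 irradiated library, and 6 lacked one in both irradiated 2 and irradiated 3. Those 6 were Fbl, Rrp9, Rrp12, Rrp1b, Mak16 and Rrs1.

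**Figure D3:**
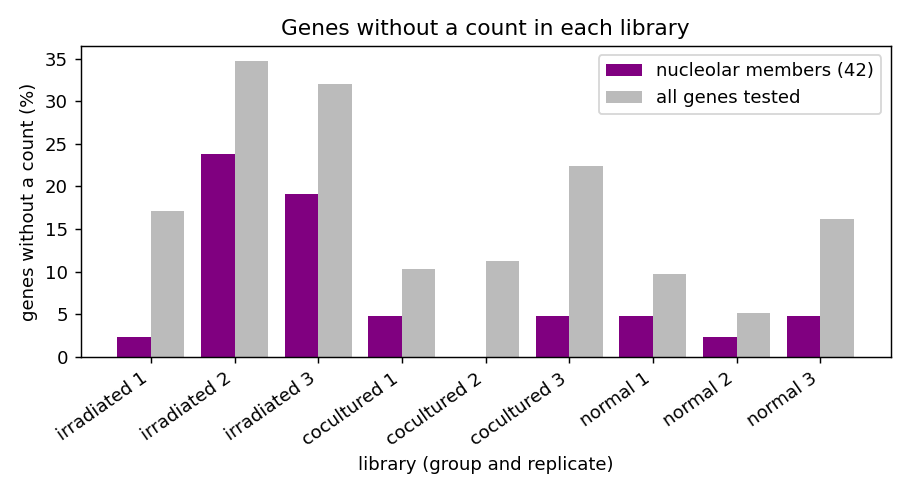
Share of genes without a count in each library, in percent, for the 42 members and for all 11980 tested genes, with irradiated, cocultured and normal libraries from left to right. In irradiated 2 and irradiated 3 the share was 23.8 and 19.0% of members and 34.7 and 32.0% of all tested genes.

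Coculture with an irradiated construct was the comparison that the choice of members did not rest on, although its normal libraries are shared with the one it did. The question is whether unirradiated muscle beside a senescent construct alters its ribosome factors. In edgeR's quasi-likelihood test 0 of the 42 members passed an adjusted p of 0.05, where 0.0% of the 11980 genes did, and 0 members and 492 genes had an unadjusted p under 0.05. The adjusted p was 1 for every member. The smallest unadjusted p in edgeR was 0.181, for Noc2l. By limma voom 0 members and 0 genes were called, and by DESeq2 0 members and 134 genes. The median log2 difference between cocultured and normal constructs was -0.07 over members and -0.07 over all tested genes, with 20 members above 0 and 22 below. The 3 cocultured libraries lay above the 3 normal ones for 1 member, Bop1, where 5.66% of all genes did so, and below them for 0 members, where 7.51% of all genes did so.

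Cocultured over normal, the log2 differences of the 6 most abundant members lay between -0.11 and 0.47. Nucleolin had a difference of 0.19 ± 0.30 (SE), with a 95% interval of -0.45 to 0.83. For the helicase gene Ddx21 the difference was -0.09 (-0.83 to 0.65), and for the processome gene Wdr43 it was 0.05 (-0.83 to 0.93). These 3 were the only members whose interval lay within -1 to 1. Npm1 had a difference of 0.47 (-0.33 to 1.27), with levels of 328 ± 20.6 normalised CPM in cocultured and 237 ± 133 in normal constructs (SD, n = 3 each). The snoRNP proteins Nop58, Nop10 and Dkc1 had differences of 0.31 (-0.74 to 1.37), -0.51 (-1.41 to 0.39) and 0.30 (-1.12 to 1.71).

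Among the genes of ribosomal DNA transcription, Ubtf had a cocultured to normal log2 difference of -0.24 (95% interval -1.25 to 0.76). Tcof1 had -0.45 (-1.89 to 0.98) and Polr1a -0.47 (-2.18 to 1.23). The processome factors Utp3 and Nop14 had -0.11 (-1.30 to 1.08) and 0.06 (-1.30 to 1.43). In the large subunit class, where Rrp1b and Mak16 were at 0 or low in irradiated libraries, the cocultured to normal log2 difference was -0.19 ± 0.75 (-1.83 to 1.46) for Rrp1b and 0.08 ± 1.46 (-3.07 to 3.23) for Mak16. Both genes had counts in every cocultured and every normal library. Their paralog or class neighbours Rrp1, Ftsj3 and Noc2l had -0.05 (-1.15 to 1.05), -0.15 (-1.16 to 0.86) and -0.88 (-2.23 to 0.47). The cocultured to normal log2 differences of Nop56, Gar1 and Fbl had intervals of -2.79 to 3.63, -1.08 to 4.01 and -6.76 to 4.98, all wide.

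Bop1, which with Pes1 and Wdr12 forms a complex of large subunit maturation, is named after its values were seen. It had 6.60, 0 and 29.1 normalised CPM in irradiated, 29.4, 26.3 and 31.9 in cocultured and 12.3, 10.2 and 7.11 in normal libraries. The cocultured libraries were alike and above the normal ones, while the irradiated ones spanned both. Its cocultured to normal log2 difference was 1.56 ± 1.72 (SE) and did not pass edgeR's test (adjusted p = 1). The model takes 1 spread per gene from all 9 libraries, so the irradiated values enter this error too. With the 6 cocultured and normal libraries fitted alone, 0 of the 41 members tested were called as well. For Bop1 the SD was 128% of the mean in irradiated, 9.63% in cocultured and 26.5% in normal libraries.

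**Figure D4:**
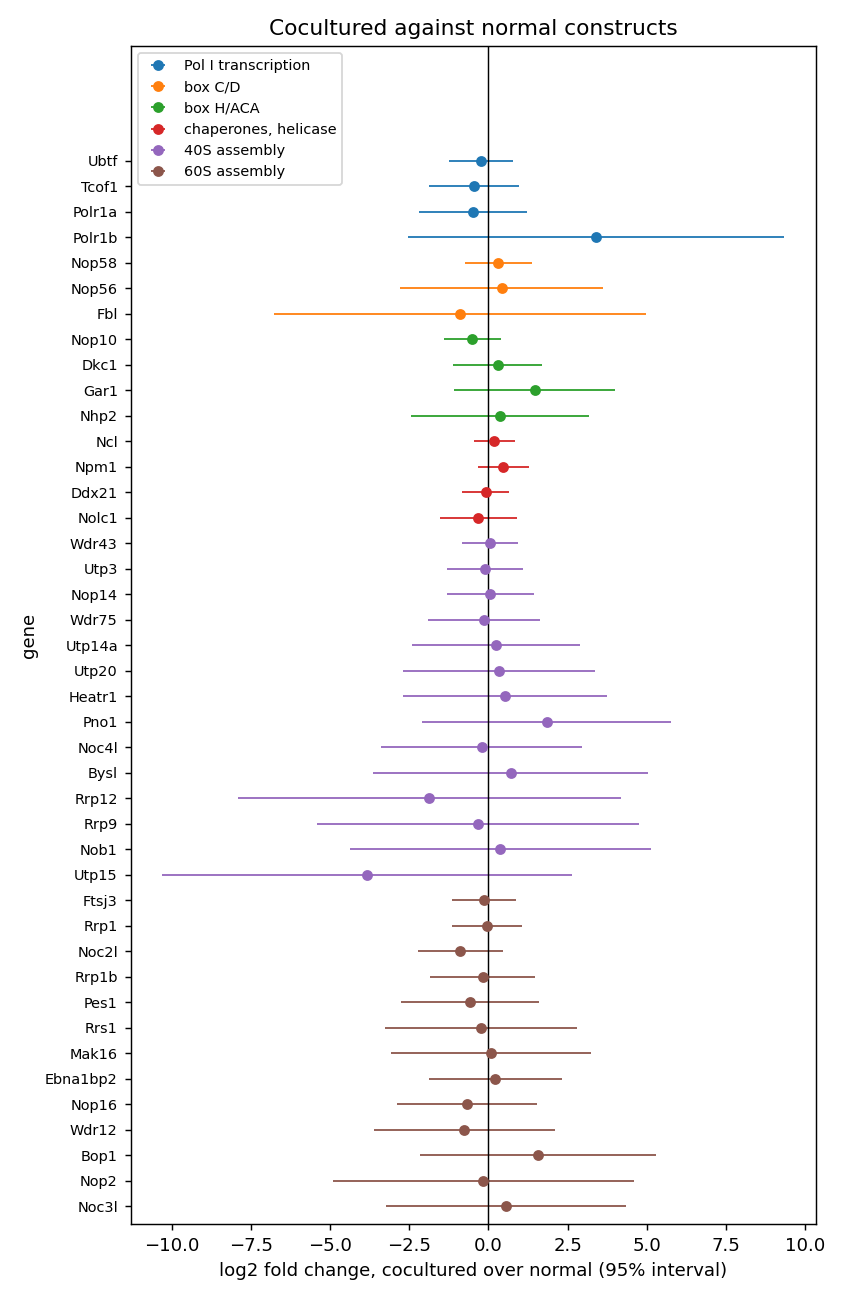
Fitted log2 differences of the 42 members between cocultured and normal constructs with 95% intervals, by role and then by mean level, with a line at 0. All intervals cross 0, and they run from narrow for Ncl to several log2 units wide for members with few counts.

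The precision followed the level of a gene. The 6 members averaging at least 100 normalised CPM over the 9 libraries, Nop58, Ncl, Npm1, Ddx21, Utp3 and Wdr43, had standard errors of 0.30 to 0.55 on the log2 difference between cocultured and normal constructs. The 22 members between 20 and 100 normalised CPM had standard errors of 0.42 to 1.49, and the 14 below 20 had 1.29 to 3.00. The differences furthest from 0 belonged to those low members, -3.85 for Utp15, a processome subunit, and 3.41 for Polr1b. With standard errors of that size a change of the low members would not have been detectable unless very large.

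Other genes of the pathway were read from lists of polymerase I subunits, assembly factors of both subunits, the RNA exosome, the MYC network and snoRNA host genes, 143 entries in all, of which 133 were tested. Between cocultured and normal constructs 0 of the 133 were called by edgeR, with 3 at an unadjusted p under 0.05, and limma voom called 0 with 2 at that level. DESeq2 called 1 of 131, Exosc3, an exosome subunit that edgeR's filter had left out, where it called 134 of 14669 genes in all. Exosc3 was near the floor in the groups compared, with 0, 0 and 0 normalised CPM in cocultured and 0, 4.54 and 1.92 in normal libraries. In irradiated libraries Exosc3 had 0, 0 and 23.6 normalised CPM. The median log2 difference between cocultured and normal constructs was -0.03 over the 133 genes, and 64 were above 0. Between irradiated and normal constructs it was -0.19, with 51 above 0. Myc itself had 0, 0 and 2.70 normalised CPM in irradiated, 2.79, 13.9 and 11.3 in cocultured and 6.98, 0.227 and 0 in normal libraries. Its cocultured to normal log2 difference of 1.94 ± 2.89 (SE) did not pass edgeR's test (adjusted p = 1).

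Markers of cell division were low in the irradiated libraries. Summed over 10 genes such as Mki67 and Top2a, they lay at 38.3 to 71.6 normalised CPM in irradiated, 170.4 to 458 in cocultured and 192 to 563 in normal libraries. All 10 had a fitted log2 difference under 0 between irradiated and normal constructs, and 5 were lower in every irradiated library than in every normal one, where 11.8% of all tested genes were. At 0 in all irradiated libraries were 3 of the 10, where this held for 7.88% of all tested genes and for 12.1% of those averaging 5 to 20 normalised CPM in cocultured and normal libraries. Their part in the low irradiated values of Rrp1b, Mak16 and Rrs1 was not tested.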

How the data were processed

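RNA from 9 constructs was sequenced from 3′ ends with the QuantSeq FWD kit as single-end 75 bp reads from 100 ng of total RNA, per the labels' protocols. The authors deposited whole-number counts per gene symbol, 1 column per library, not normalized. FastQC, STAR, HTSeq and the builds GRCm39 and mm39 are named in the submitters' processing notes. The annotation and the strand setting, not given in the sources used here, decide how reads of overlapping genes were assigned. The labels name no molecular identifiers, so the floor of 3 counts covers counting error only.

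From these counts 1 edgeR 4.0.16 quasi-likelihood model (R 4.3.3) was fitted to all 9 libraries after filterByExpr and TMM scaling, with group as its term, and p-values were adjusted by Benjamini-Hochberg over 11980 genes. Calls are adjusted p under 0.05. Normalised CPM are CPM computed on the TMM-scaled library size. Standard errors, the log2 difference divided by the square root of F, are approximate, and 95% intervals rest on them. Each gene has 1 estimate of spread from all 9 libraries. Errors and intervals between cocultured and normal constructs therefore also hold the spread of the irradiated libraries. DESeq2 1.42.0, limma 3.58.1 voom, other filters and scalings, a replicate block and left-out libraries were alternatives. The fitting step was also run on simulated data with known changes, and no result given here rests on that run.

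The members and gene lists were chosen with earlier results of these data known. Named with values in every library were Rrp1b and Mak16, any member called between cocultured and normal constructs, and the 3 members of highest mean level in each role class; others are said to be named after their values were seen or are given by a single value. No pair of replicates was counted as 1 library: a chi-square of their counts came to 35.4 to 297 per gene. Shared 75-base runs were sought between the last 500 bases of members' transcripts and the transcripts of other genes, on both strands. The sequences were those of GENCODE M21 on GRCm38, while the processing notes of the counts name GRCm39, so the annotation behind the counts may differ. A planned comparison of the Rrp1 and Rrp1b proteins was not made, since no protein table was used here.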

Additional observations from a re-analysis of the deposited data

How the results depend on the processing

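No member was called between cocultured and normal constructs under any alternative, with edgeR, DESeq2 or limma voom. Over all genes the count of calls in that comparison was 0 in edgeR and 0 by limma voom, with 492 at an unadjusted p under 0.05 in edgeR. It was 134 with DESeq2, 52 without a filter on low counts, 1 without both irradiated 1 and normal 3, and 96 without both irradiated 2 and irradiated 3, a setting chosen after seeing the data. The median log2 difference of members between cocultured and normal constructs was -0.07. Scaled by library totals alone it was 0.46, where the median over all genes was 0.48, against -0.07 with TMM, and the differences of Ncl and Npm1 were 0.71 and 0.95. Leaving out 1 library at a time it ran from -0.15 to 0.17, and it was above 0 without cocultured 3 (0.15) and without normal 2 (0.17). Between irradiated and normal constructs the count of members past the threshold was 1, against 2 with DESeq2, 2 without a filter, 2 without both irradiated 1 and normal 3, and 0 with the 6 irradiated and normal libraries fitted alone. Leaving out 1 library it was 1 to 3, and the 3 came without irradiated 1, which holds every irradiated count of Mak16 and Rrs1. The count of genes was 7, against 688 with DESeq2, 25 with limma voom, 130 without a filter, 0 with those 6 libraries alone, 23 with a replicate block, 20 without both irradiated 1 and normal 3, 190 without both irradiated 2 and irradiated 3, and 21 at an adjusted p under 0.10. Leaving out 1 library it was 6 to 147, with 147 without irradiated 1, 13 without irradiated 2, 17 without irradiated 3 and 14 without normal 2. The number of genes tested also changed, from 11980 to 13294 without irradiated 1 and to 16210 without both irradiated 2 and irradiated 3. It was 10653 with the 6 irradiated and normal libraries alone. The cause of these shifts in calls was not tested. The median of members between irradiated and normal constructs stayed within the spread of replicates, from -0.38 with limma voom to 0.31 with library totals. Over all genes the median was -0.96 with limma voom and 0.14 with library totals. The sign of the fitted difference turned under at least 1 alternative for 14 of 20 named members in each comparison against normal. Deviations of same-numbered libraries of different groups were barely correlated (-0.071 to 0.054, and 7 of 18 best with their own number). With 3 uneven libraries per group this check cannot tell whether same-numbered libraries shared a dish or a batch. With the replicate block 0 members and 0 genes were called between cocultured and normal constructs. Member medians were then -0.11 for that comparison, -0.25 for irradiated against normal and -0.15 for irradiated against cocultured constructs. Medians over all genes were -0.12, -0.55 and -0.32 in the same order. Ncl, the most abundant member, had 2322 to 9233 counts per library. Members below 20 normalised CPM had standard errors of at least 1.29.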

Other observations

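Among the 133 other tested genes of the pathway, 4 (3.01%) lay above normal libraries without overlap in irradiated ones and 9 (6.77%) below, where 3.94 and 11.8% of all tested genes did so. The genes named here were picked from these after their values were seen, and their values carry no test and stand for no excess over all genes. Exosc2 and Exosc8, subunits of the RNA exosome that trims ribosomal RNA precursors, were at 0 in the 3 irradiated libraries. Exosc2 had 13.0, 0.103 and 5.43 normalised CPM in cocultured and 21.8, 12.5 and 6.57 in normal libraries, and Exosc8 had 24.0, 37.1 and 0 in cocultured and 5.55, 11.1 and 42.7 in normal libraries. Mxd4, which pairs with MAX as a MYC antagonist, had 358, 288 and 329 in irradiated, 150.1, 171 and 166 in cocultured and 231, 237 and 171 normalised CPM in normal libraries, and every irradiated library was above the 6 others. Zfas1, a host gene of box C/D snoRNAs, had 61.8, 35.7 and 19.8 in irradiated, 109, 89.1 and 108 in cocultured and 78.9, 92.9 and 126 normalised CPM in normal libraries, and every irradiated library was below the 6 others.

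Nsa2, a large subunit assembly factor, had 79.4, 49.4 and 117 in irradiated, 72.4, 70.6 and 58.2 in cocultured and 21.6, 38.9 and 47.1 normalised CPM in normal libraries, with both other groups above normal. Nop53, which recruits the exosome to large subunit precursors in yeast, had 146, 59.3 and 126 in irradiated, 53.1, 119.7 and 139 in cocultured and 147, 166 and 178 normalised CPM in normal libraries, with both other groups below normal. Of the 133 genes, 5 lay above normal libraries without overlap in cocultured ones and 12 below, where 5.66 and 7.51% of all tested genes did so. None of the genes named in this section passed edgeR's test between cocultured and normal constructs (adjusted p = 1 for each). As with the members, irradiated 2 and irradiated 3 were the libraries with the most genes without a count.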
